A study of Rattus norvegicus with 8 samples.

Results

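Expression of 9 genes of the mitochondrial and death receptor routes of apoptosis was followed in rat hippocampus during hypobaric hypoxia. The genes were Bcl2, Bcl2l1, Mcl1, Bcl2l11, Bid, Casp8, Casp9, Apaf1 and Xiap. They were chosen by name, and every non-control array probe annotated with any of these names was taken, which gave 15 of 30367 probes. Of these, 14 passed a detection filter, which asked that some group have both its arrays well above background, and were tested among 24678 such probes; the probe of Bcl2l11 did not pass. The RNA came from hippocampus of male Sprague Dawley rats. The control group was kept in normoxia, and the exposed groups were kept in a decompression chamber set to 25000 ft with an effective oxygen concentration of 8%, for 1 day, 3 days, or a last period that the titles give as day 7 and the exposure field as 5 days. That last group is called day 7 here. Each group has 2 single-colour Agilent arrays, 8 in all. No label says that these came from separate animals or gives the animals' age, so the spread behind each p-value is that between arrays and may be technical.

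Cells commit to mitochondrial apoptosis when pore-forming members of the Bcl2 family open the outer mitochondrial membrane. Bcl2, Bcl-xL (from Bcl2l1) and Mcl1 hold the pore formers in check, and BH3-only proteins such as Bim (from Bcl2l11) and Bid relieve that check. Released cytochrome c assembles Apaf1 into the apoptosome, which activates caspase 9, while caspase 8 is activated at death receptors and cleaves Bid to link both routes; Xiap binds and blocks caspase 9 and the caspases downstream of it. Neurons of the hippocampus are among the brain cells most vulnerable to low oxygen, and RNA levels do not report cleavage or binding of these proteins.

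Levels are log2 signals minus the 75th percentile of the array. Changes are differences of group means on this log2 scale, given ± SE with n = 2 arrays per group. A change was called at an adjusted p under 0.05 in limma, over all 24678 probes. Total signal fell over the exposure: the 75th percentile of probe signal was 2321 to 2684 in normoxia and 1393 to 1407 on day 7, and spots well above background made up 84.5% to 85.6% and 72.6% to 77.0%. Of 7 listed neuronal markers, 6 were on the array by name, and 5 of these were above background on every array. The sixth, Prox1, was not above background on days 1 and 7. Sums of markers are given as the log2 of their added linear signals, so the brightest marker of a set weighs most. The 6 neuronal markers summed to 4.45 to 4.48 in normoxia, 4.40 to 4.41 on day 1, 4.32 on day 3 and 3.85 to 3.87 on day 7. On day 7, 4 neuronal markers were lower and 1 higher. Markers of tissue next to the hippocampus moved between groups. The 5 choroid plexus markers summed to 6.89 to 7.01 in normoxia, 0.52 to 0.58 on day 1, 7.32 to 7.42 on day 3 and 3.24 to 3.35 on day 7, with Kl not above background on days 1 and 7. All 5 were lower on days 1 and 7. On day 3 Ttr, the brightest of them, was higher, and 2 others, Sostdc1 and Kl, were lower. The 5 striatal markers summed to 1.75 to 1.79, 4.66, 1.73 to 1.76 and 1.30 to 1.38, and Gpr6 was above background only on day 1. Endothelial markers summed to 2.95 to 3.00 in normoxia and 4.67 to 4.70, 4.44 to 4.50 and 4.06 to 4.07 on days 1, 3 and 7, and all 4 were higher on each day. The 4 red blood cell markers were also all higher on each day and summed to 5.47 to 5.55, 6.49 to 6.52, 7.18 to 7.24 and 7.53 to 7.59 from normoxia to day 7. The neutrophil markers summed to -2.14 to -2.10 in normoxia and -0.67 to -0.56 on day 1, with Mpo not above background on any array. Of 4 astrocyte markers, 3 were lower on day 1, and 2 lower and 2 higher on day 7, when Gfap had gone from -0.13 to -2.09, and of 4 microglial markers, 2 were higher on day 1 and 3 lower on day 7. Of 4 oligodendrocyte markers, 2 were higher on day 1, and 2 higher and 2 lower on days 3 and 7. The part of these markers in the results below was not tested. In such bulk RNA, fewer cells of a type and less RNA per cell cannot be told apart.

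The probes are 60 bases long. Their positions come from the annotation of the array for rat build rn4, which gives no exon, intron or UTR. The probes shown are those of Casp9, Casp8 and Bid, on which several results turn, and the Bcl2l1 probe whose course differed from those of its gene's other probes. The Casp9 probes are shown because both were highest on day 1, while the sizes of their later falls differed, a difference that was not tested. They lie at bases 521 and 1213 of the same transcript, at chr5:160706833-160706892 and chr5:160719541-160719600. The Bid probe (chr4:157297971-157298030) and the Casp8 probe carried the largest and least precise changes. The Casp8 probe matches a stretch that spreads over 7087 bases of the genome, chr9:57428119-57435205, so it crosses at least 1 splice junction. The Bcl2l1 probe (chr3:143178503-143178562) begins with the start codon of the Bcl-xL reading frame, written in capitals.
Casp9, base 521: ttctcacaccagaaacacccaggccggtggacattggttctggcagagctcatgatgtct
Casp9, base 1213: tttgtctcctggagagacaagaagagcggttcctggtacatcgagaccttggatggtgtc
Bid: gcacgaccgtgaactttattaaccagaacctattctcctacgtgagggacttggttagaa
Casp8: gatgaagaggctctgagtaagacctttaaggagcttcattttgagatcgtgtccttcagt
Bcl2l1, start codon: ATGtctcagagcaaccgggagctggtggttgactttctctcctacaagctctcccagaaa

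Over the course, Casp9 RNA rose on day 1 and fell below normoxia by day 7. Xiap and Mcl1 rose on day 1, and Bcl2 rose on day 3 and fell on day 7. Bid fell by day 7 except with normexp background correction, and its day 3 fall lost its call under several alternatives. Apaf1 rose by day 7, and its lower day 1 signal was not called on both its probes. Any difference among the 4 groups was called for 12 of the 14 probes, where 71.6% of all probes tested were called. All 8 genes tested had at least 1 such probe, Casp8 included, which passed the detection filter only through day 1, where it was high. With 1 probe per gene, 15348 of all 21296 genes were called in this test. Against normoxia on day 1, 6 of 14 probes were called (34.2% of all probes), 4 higher (15.1%) and 2 lower (19.2%). On day 3, 6 were called (49.9%), 2 higher (22.7%) and 4 lower (27.2%). On day 7, 9 were called (61%), 3 higher (29.6%) and 6 lower (31.4%). Between day 1 and day 3, 8 were called (51%), 1 higher (26.7%) and 7 lower (24.3%, among them Casp8, which passed the detection filter only through day 1), and between day 3 and day 7, 7 were called (41.2%), 3 higher (22.3%) and 4 lower (18.9%). Shares of called members were thus near those of all probes in most comparisons, and the step from day 1 to day 3 was the one in which lower calls were most frequent among members relative to all probes. Probes of a gene share their source, so the 14 are not 14 independent values.

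Member probes had a median change of 0.24, -0.16 and -0.18 on days 1, 3 and 7, beside -0.06, -0.07 and -0.07 over all probes. From day 1 to day 3 it was -0.33 beside 0.01. The split between higher and lower calls depended on how arrays were scaled. With normexp background correction, members were 6 higher and 2 lower on day 3, and 7 higher and 2 lower on day 7. Of all called probes, 44.0%, 45.5% and 48.5% were higher on days 1, 3 and 7, against 64.4% and 70.4% on days 3 and 7 with median centring and 67.6% and 70.4% with normexp. A fit with the probe GC trend taken out gave 59.7% on day 1. From day 1 to day 3 the share was 52.4%, against 66.2% with median centring and 68.6% with normexp, and from day 3 to day 7 it was 54.1%, against 74.9% with median centring. The median of all probes on day 7 stood at 0.23 under median centring and 0.22 under normexp, where the values above have -0.07. The day 7 changes of Bcl2 and of both Casp9 probes were below 0 under every scaling tried. Those of both Apaf1 probes and the Bcl2l1 start codon probe were above 0 under every one. The changes of Mcl1, Bid, Casp8, Xiap and the other Bcl2l1 probes changed sign under at least 1.

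**Figure D1:**
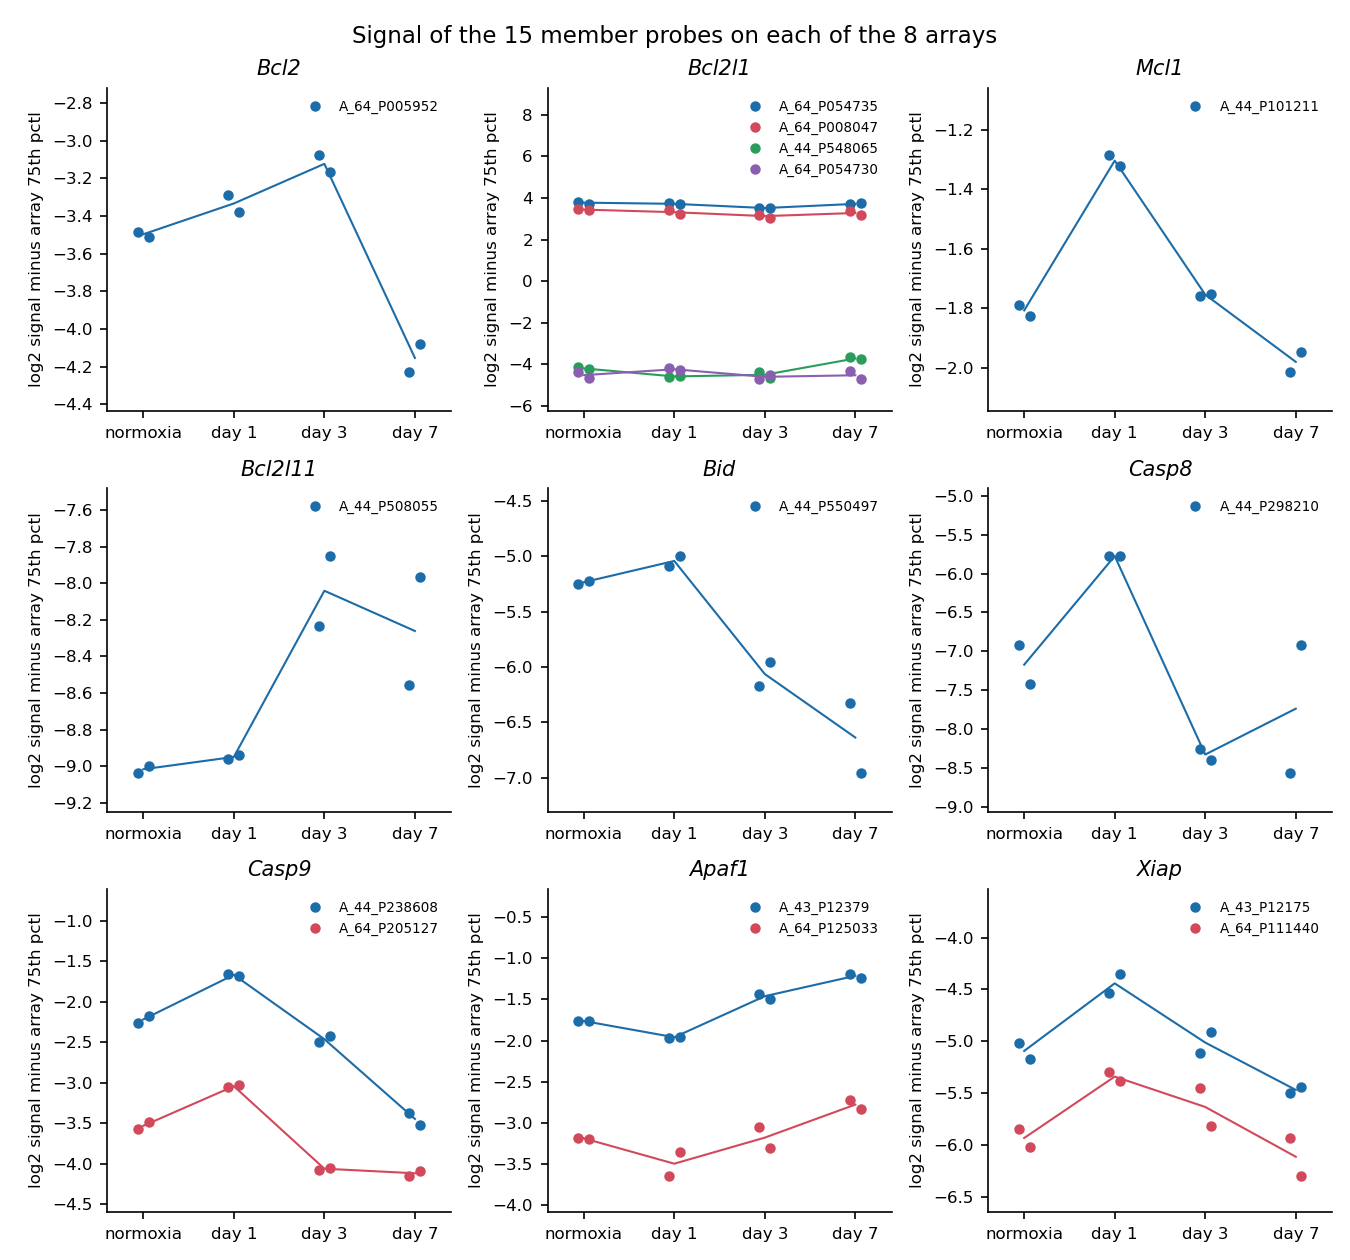
Log2 signal minus the array's 75th percentile (y axis, own scale in each panel) of each member probe in normoxia and on days 1, 3 and 7 (x axis), with a point for each array and a line through the group means. Casp9 peaks on day 1 on both probes and Apaf1 is lowest there; Bcl2 is highest on day 3 and lowest on day 7; the Bcl2l11 probe is not above background on any array.

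Of the genes that restrain the pore formers, Bcl2 changed in opposite directions late in the course. Its probe (chr13:12730740-12730799) read -3.48 and -3.51 (normoxia), -3.29 and -3.38 (day 1), -3.08 and -3.17 (day 3), and -4.23 and -4.08 (day 7). No groups overlapped, with day 3 highest and day 7 lowest. Bcl2 rose by 0.37 ± 0.07 on day 3 (1.30-fold, adjusted p = 0.00838) and fell by 0.66 ± 0.07 on day 7 (1.58-fold, adjusted p = 0.000759). The day 1 change of 0.16 was not called (adjusted p = 0.132). From day 3 to day 7 Bcl2 fell 2.04-fold (adjusted p = 0.000767).

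Mcl1, a short-lived survival factor that depends on continued synthesis, stood apart on day 1. Its probe, on the unplaced part of chromosome 2 (chr2_random:2891461-2891520), read -1.79 and -1.82 (normoxia), -1.29 and -1.32 (day 1), -1.76 and -1.75 (day 3), and -2.01 and -1.95 (day 7). Both day 1 arrays lay above all others. Mcl1 rose by 0.50 ± 0.04 on day 1 (1.42-fold, adjusted p = 0.00113), was 0.05 from normoxia on day 3 (adjusted p = 0.332; 0.20 and called under median centring), and fell by 0.17 ± 0.04 on day 7 (adjusted p = 0.0151). That small day 7 change was 0.0035 under quantile normalization and 0.12 under median centring, neither called. It was not called under cyclic loess (-0.05, adjusted p = 0.376), with normexp (-0.08, adjusted p = 0.248) or in a fit of only these 2 groups (adjusted p = 0.0723). Without the array normoxia 1 or day 7 1 it was -0.16 or -0.14 and was not called.

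Bcl2l1, the source of Bcl-xL, gave different courses on its 4 probes. Both probes of one end of the gene overlap by 52 bases (chr3:143129088-143129147 and chr3:143129096-143129153) and are annotated to the same 2 transcripts. The first read 3.82 and 3.73 (normoxia), 3.74 and 3.70 (day 1), 3.51 and 3.52 (day 3), and 3.69 and 3.74 (day 7), so that day 3 lay below every other array. It fell by 0.26 ± 0.05 on day 3 (1.20-fold, adjusted p = 0.00743), a call lost under median centring (-0.11, adjusted p = 0.147), and was -0.06 from normoxia on days 1 and 7. The day 7 value was called lower under quantile normalization (-0.33, adjusted p = 0.00302) and cyclic loess (-0.36, adjusted p = 0.00278) and called higher under median centring (0.24, adjusted p = 0.0131). The second, with readings from 3.05 to 3.45, gave -0.31 ± 0.10 on day 3 and was called in no comparison with normoxia (adjusted p = 0.0526 on day 3). The day 3 fall was called under 9 of 20 alternatives, quantile normalization (-0.42, adjusted p = 0.0265), cyclic loess (-0.45, adjusted p = 0.0182) and the replicate block (adjusted p = 0.0198) among them, and the day 7 change was called lower under quantile normalization and cyclic loess (-0.41 and -0.44). The start codon probe, annotated to 3 transcripts, read -4.15 and -4.25 (normoxia), -4.61 and -4.56 (day 1), -4.37 and -4.64 (day 3), and -3.67 and -3.77 (day 7). Its day 7 arrays lay above all others. It rose by 0.48 ± 0.10 on day 7 (1.39-fold, adjusted p = 0.00956; 0.43 and adjusted p = 0.0536 without the array normoxia 2) and fell by 0.39 ± 0.10 on day 1 (adjusted p = 0.0358), a call lost without either normoxia, day 1 or day 7 array (adjusted p = 0.0545 to 0.147) and under quantile normalization, cyclic loess and normexp. The fourth probe (chr3:143176523-143176582), with readings from -4.72 to -4.18, was called in no comparison. Whether the probes differ from one another was not tested.

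Among the BH3-only genes, Bid fell and Bcl2l11 could not be measured. The Bid probe read -5.25 and -5.22 (normoxia), -5.09 and -5.00 (day 1), -6.17 and -5.95 (day 3), and -6.32 and -6.95 (day 7), with 1 of 2 day 7 arrays well above background. Normoxia and day 1 lay above both later groups. Bid fell by 0.83 ± 0.21 on day 3 (1.78-fold, adjusted p = 0.0242) and by 1.40 ± 0.21 on day 7 (2.64-fold, adjusted p = 0.0028). The day 1 change of 0.19 was not called (adjusted p = 0.529), and from day 1 to day 3 Bid fell 2.03-fold (adjusted p = 0.0117). With normexp the day 3 and day 7 changes were both 0.10 and not called. The day 3 call was also lost under quantile normalization (-0.53, adjusted p = 0.0530) and cyclic loess (-0.43, adjusted p = 0.116), and in the authors' deposited values (-0.28, adjusted p = 0.379). Without either normoxia or day 3 array the day 3 change was -0.94 to -0.72 and was not called. The Bcl2l11 probe (chr3:115722606-115722665), annotated to 3 transcripts of Bim, was not well above background on any of the 8 arrays.

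The apoptosome genes had moved in opposite directions by day 7. Casp9, the initiator caspase of the mitochondrial route, read -2.26 and -2.18 (normoxia), -1.66 and -1.68 (day 1), -2.50 and -2.42 (day 3), and -3.37 and -3.52 on day 7 on the probe at base 1213. No groups overlapped, from day 1 at the top to day 7 at the bottom. Casp9 rose by 0.55 ± 0.07 on day 1 (1.47-fold, adjusted p = 0.00352) and fell by 1.23 ± 0.07 on day 7 (2.34-fold, adjusted p = 0.000102); both were called under every alternative scaling, filter, model and left-out array that gave a value for this probe, and the day 7 fall but not the day 1 rise also passed a 2-fold threshold. Its day 3 fall of 0.24 ± 0.07 (adjusted p = 0.0295) was lost under most scalings and without any array of normoxia, day 1 or day 3 (adjusted p = 0.0588 to 0.129). The probe at base 521 read -3.58 and -3.48, -3.05 and -3.03, -4.07 and -4.05, and -4.15 and -4.09 in the same order of groups. It too was highest on day 1, and both later groups lay below normoxia. It rose by 0.49 ± 0.05 on day 1 (1.40-fold, adjusted p = 0.00182), and fell by 0.53 ± 0.05 on day 3 (1.44-fold, adjusted p = 0.000812) and by 0.59 ± 0.05 on day 7 (1.50-fold, adjusted p = 0.000311; -0.13 and not called with normexp). From day 3 to day 7 the changes on the 2 probes were -0.98 (adjusted p = 0.000767) at base 1213 and -0.06 (adjusted p = 0.393) at base 521, a difference between probes that was not tested.

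Apaf1, the scaffold that activates caspase 9, had its lowest signal on day 1. The first probe (chr7:27933335-27933395) read -1.76 on both arrays (normoxia), -1.97 and -1.95 (day 1), -1.43 and -1.49 (day 3), and -1.19 and -1.24 (day 7). No groups overlapped, with the order day 1, normoxia, day 3, day 7 from low to high. Apaf1 rose by 0.30 ± 0.04 on day 3 (1.23-fold, adjusted p = 0.00263) and by 0.55 ± 0.04 on day 7 (1.46-fold, adjusted p = 0.000219), both called under every alternative scaling, filter, model and left-out array that gave a value for it, though neither reached a 2-fold threshold. The day 1 fall of 0.20 ± 0.04 (adjusted p = 0.0164) was not called without any normoxia or day 1 array, where the change was -0.20 to -0.19. With the probe GC trend removed it was -0.10 and was not called either (adjusted p = 0.0823). The second probe (chr7:27934664-27934723) read -3.18 and -3.19, -3.64 and -3.35, -3.05 and -3.31, and -2.73 and -2.83, with day 1 lowest and day 7 highest. It rose by 0.41 ± 0.13 on day 7 (adjusted p = 0.0386), a call lost without any normoxia or day 7 array (adjusted p = 0.0813 to 0.139) and with the probe GC trend removed (0.15), and its changes of -0.31 on day 1 and 0.01 on day 3 were not called.

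Casp8, the initiator at death receptors, was near the detection limit. Its probe read -6.92 and -7.42 (normoxia), -5.77 on both arrays (day 1), -8.26 and -8.39 (day 3), and -8.56 and -6.92 (day 7). It was well above background on 1 normoxia array, both day 1 arrays and no later array, and day 1 lay above all other groups. It passed the detection filter only through day 1, the group where it was high, so its differences from day 1 are a description. The day 1 change from normoxia was 1.40 ± 0.53 and was not called (0.51 and called with normexp, and called without either day 7 array or in a fit of only these 2 groups). Set against the lowest signal counted as above background, Casp8 on day 3 was at least 2.91-fold lower than on day 1.

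Xiap, the caspase inhibitor, was highest on day 1 on both probes. Its first probe (chrX:3011521-3011580) read -5.01 and -5.17 (normoxia), -4.53 and -4.35 (day 1), -5.11 and -4.91 (day 3), and -5.50 and -5.44 (day 7). Day 1 was highest and day 7 lowest, and normoxia and day 3 overlapped. Xiap rose by 0.65 ± 0.10 on day 1 (1.57-fold, adjusted p = 0.00798), and also under every alternative scaling, filter, model and left-out array that gave a value for this probe, but short of a 2-fold threshold. It fell by 0.38 ± 0.10 on day 7 (adjusted p = 0.0253), but this was 0.30 with normexp, -0.03 with cyclic loess, and not called without the array normoxia 1 or either day 7 array (adjusted p = 0.0651 to 0.115). The second probe (chrX:3011760-3011819) read -5.84 and -6.02, -5.29 and -5.39, -5.45 and -5.82, and -5.93 and -6.30, again highest on day 1. Its day 1 change of 0.59 ± 0.18 missed the threshold (adjusted p = 0.0529) but was called under 11 of 18 alternatives, with an adjusted p of 0.00406 to 0.0400 under the 4 other ways of normalizing the scanner signals and of 0.0151 with the replicate block. Its day 7 change was -0.18 (0.52 and called higher with normexp). On day 3 this probe was called higher under quantile normalization, cyclic loess and normexp (0.62, 0.70 and 0.59), and the first probe with normexp (0.30).

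**Figure D2:**
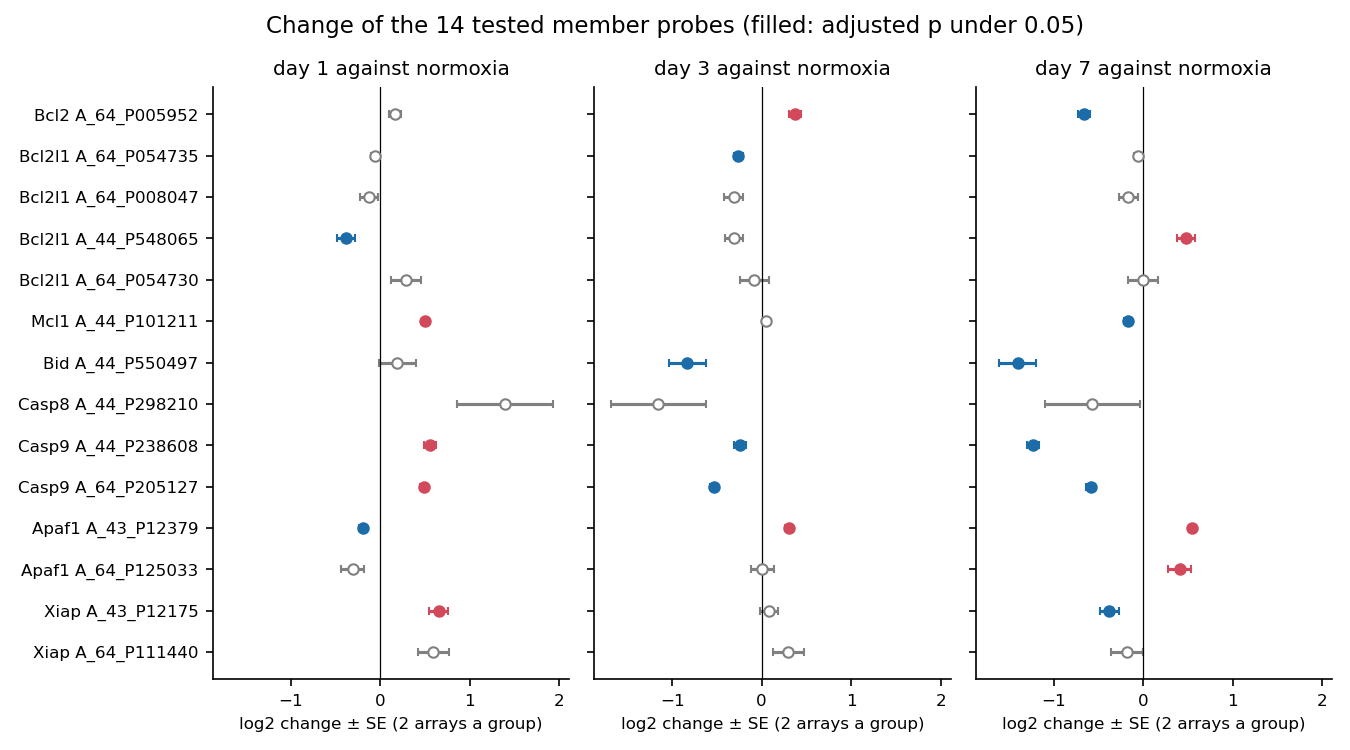
Log2 change ± SE (x axis) of the 14 tested member probes (y axis) on days 1, 3 and 7 against normoxia, 2 arrays per group, with filled red (higher) or blue (lower) points where the adjusted p was under 0.05. Casp9 crosses from higher on day 1 to lower on days 3 and 7 on both probes, Apaf1 ends higher on both, and Casp8 has the widest error.

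The core of the hypoxia response element was searched for in the promoters of Casp9 and Apaf1, which act in 1 complex. The windows are the 250 bases before the transcript start in RefSeq (GRCr8), chr5:159391824-159392073 on the plus strand for Casp9 and chr7:27466773-27467022 on the minus strand for Apaf1. Capitals mark ACGTG and GCGTG, searched on both strands, so that CACGT and CACGC are matches of the reverse strand; matches may overlap.
Casp9: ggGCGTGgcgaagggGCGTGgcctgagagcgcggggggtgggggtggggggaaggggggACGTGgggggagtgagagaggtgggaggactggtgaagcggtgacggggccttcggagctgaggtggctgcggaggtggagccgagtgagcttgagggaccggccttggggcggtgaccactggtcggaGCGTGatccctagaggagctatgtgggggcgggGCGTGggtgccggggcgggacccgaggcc
Apaf1: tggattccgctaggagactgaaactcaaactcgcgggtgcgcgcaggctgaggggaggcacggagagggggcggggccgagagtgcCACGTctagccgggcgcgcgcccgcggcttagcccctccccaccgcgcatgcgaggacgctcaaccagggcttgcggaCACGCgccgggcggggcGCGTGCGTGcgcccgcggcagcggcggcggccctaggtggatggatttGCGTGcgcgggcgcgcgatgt
Each window held 1 match of ACGTG and 4 of GCGTG. Of 33469 windows of the same length, 16.6% held ACGTG and 25.9% held GCGTG; among the 8454 windows with at least 60% GC, as both of these have, the shares were 22.8% and 53.2%. RefSeq windows were found for 7 of the 9 genes, 10 in all, since Bcl2l1 has 4, and 4 of the 10 held each motif. The windows of Mcl1 and Bid held neither. Whether these motifs relate to the changes in RNA was not tested. A match of letters is not evidence of a bound site.

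Casp9 at base 1213 had the smallest F-test p of the member probes. Over the 8 arrays, the probes most like it were those of Rassf1 and Grb2 (Pearson r = 0.998 and 0.997), Pou3f2 (0.997), Atf6b (0.997) and Hs3st1 (0.997). Grb2, a signalling adaptor, read 0.73 on both arrays (normoxia), 1.12 and 1.10 (day 1), 0.44 and 0.53 (day 3), and -0.17 and -0.21 (day 7), the same order of groups as Casp9. These correlations were picked as the highest of all tested probes, rest on 4 groups of 2 arrays, and are a description of likeness only.

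Most called changes of the wider pathway were rises, with each gene taken by its brightest tested probe. Of 51 other apoptosis genes listed by role, 47 were on the array by name and 43 could be tested. On day 1, 13 rose and 6 fell, where 15.1% of all probes were called higher and 19.2% lower. On day 3, 23 rose and 4 fell (22.7% and 27.2% of all probes), and on day 7, 26 rose and 3 fell (29.6% and 31.4%). The falls include Bcl2a1 on days 3 and 7 and Faslg on day 1, which passed the detection filter only through normoxia. Their median change was 0.10, 0.20 and 0.32, beside -0.06, -0.07 and -0.07 over all probes. From day 1 to day 3, 16 rose and 7 fell (26.7% and 24.3% of all probes), and from day 3 to day 7, 16 rose and 2 fell (22.3% and 18.9%). The day 1 total of 19 was 10 or 11 without the first or second day 1 array, and the total of 23 from day 1 to day 3 was 13 and 12 without these and 15 without either day 3 array. A gene is represented by its brightest tested probe, and bright probes rose relative to dim ones, as given below. Other probes of these genes that were above background on every array often went the other way on day 7. They lay below normoxia for Bax, Bok, Hrk, Casp2, Cycs, Tradd (-0.66) and Dffa (-0.18), and above it for Cflar and Ripk1.

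Among the pore-forming effectors, the brightest probes of all 3 rose on day 3, where 22.7% of all probes were called higher. Second probes of Bax and Bok did not rise. Bax rose by 0.37 ± 0.06 and then fell by 0.58 ± 0.06 below normoxia on day 7, reading 1.17 and 1.25 (normoxia), 1.51 and 1.64 (day 3), and 0.66 and 0.61 (day 7). A second Bax probe gave -0.02 on day 3 and -1.18 on day 7, so only the late fall was shared. Bak1 rose by 0.38 on day 3 and 0.58 on day 7. Bok fell by 0.37 on day 1 and rose by 0.49 on day 7, but its second probe gave -0.17, -0.24 and -0.36 on days 1, 3 and 7.

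Of 5 other BH3-only genes, 3 rose on day 1 and 4 on days 3 and 7, and none fell, where 34.2%, 49.9% and 61% of all probes were called in either direction. Bik had the largest rise: from -6.70 and -6.29 in normoxia it read -4.00 and -3.99 (day 1), -3.75 and -3.21 (day 3), and -3.91 and -4.03 (day 7). All exposed arrays lay above both normoxia arrays, with rises of 5.65-fold, 8.08-fold and 5.73-fold (2.50, 3.01 and 2.52 ± 0.22; adjusted p = 0.00133, 0.000456 and 0.000379). Bbc3, which encodes the p53 target Puma, rose by 0.61, 0.64 and 1.10 ± 0.04. Hrk rose by 0.19, 0.32 and 0.33, while its second probe gave -0.20, -0.04 and -0.10. The BNIP genes, hypoxia-induced mitophagy receptors related to the family, rose on every day: Bnip3 by 0.60, 0.48 and 0.59, and Bnip3l by 0.32, 0.51 and 0.98.

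Of the other anti-apoptotic genes, Bcl2l2 (Bcl-w) rose by 0.36 on day 3 and 0.72 on day 7, and Bcl2l10 rose by 0.45 on day 1 only among the 3 comparisons with normoxia. Bcl2a1 was well above background on both normoxia arrays and on no later array. It passed the filter only through normoxia, so its bounds of at least 1.31-fold and 1.24-fold lower on days 3 and 7 are a description. Of the other caspases, Casp2 rose by 0.31 on day 3 and 0.71 on day 7, although its second probe above background gave -0.42 and -0.19. Casp12, a caspase of the endoplasmic reticulum, fell by 0.47, 0.53 and 0.46 on days 1, 3 and 7, and Casp4 rose by 0.51 on day 7.

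Of 4 other inhibitor of apoptosis genes, Birc5, which encodes survivin and is also expressed by dividing cells, read -4.03 on both arrays in normoxia and -2.35 and -2.42 (day 7), a rise of 3.12-fold (1.64 ± 0.06, adjusted p = 4.31e-05). Birc3 rose by 0.77 on day 1 and 0.45 on day 3, and was 0.14 from normoxia on day 7. Of 7 genes of mitochondrial release, 3 fell and 1 rose on day 1, and 5 rose and none fell on day 7 (34.2% and 61% of all probes were called). From day 3 to day 7 all 7 rose, by a median of 0.34, where 22.3% of all probes were called higher. Their probes were bright, in deciles 8 to 10 of mean level. All probes of those deciles had median changes of 0.09, 0.14 and 0.17 over this step. Cycs, cytochrome c, changed by -0.22, 0.17 and 0.59 (its second probe gave -0.25, -0.02 and -0.09), and Htra2 by -0.40, 0.19 and 0.36. Vdac2, an outer membrane channel, rose by 0.21 on day 3 and 0.53 on day 7.

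Of 9 death receptor genes, 3 rose and 1 fell on day 1 and 4 rose on day 7, beside 34.2% and 61% of all probes called on these days. Cflar, the inhibitor of caspase 8 activation, rose by 0.33, 0.46 and 0.79, and its other probes gave 0.69, 0.66 and 0.84, and 0.13, -0.26 and 0.26. Ripk3, a kinase of necroptosis, rose by 0.75 ± 0.06 on day 1 only among the comparisons with normoxia, with 0.10 and 0.03 on days 3 and 7. Ripk1 rose by 0.24 on day 3 and 0.32 on day 7, and its second probe gave 0.02 and 0.56. Faslg was at least 1.87-fold lower on day 1, a description only, since it too passed the filter only through normoxia. Of the 3 caspase substrates, Parp1 rose by 0.13, 0.31 and 0.33, and Dffa and Dffb were not called on any day.

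**Figure D3:**
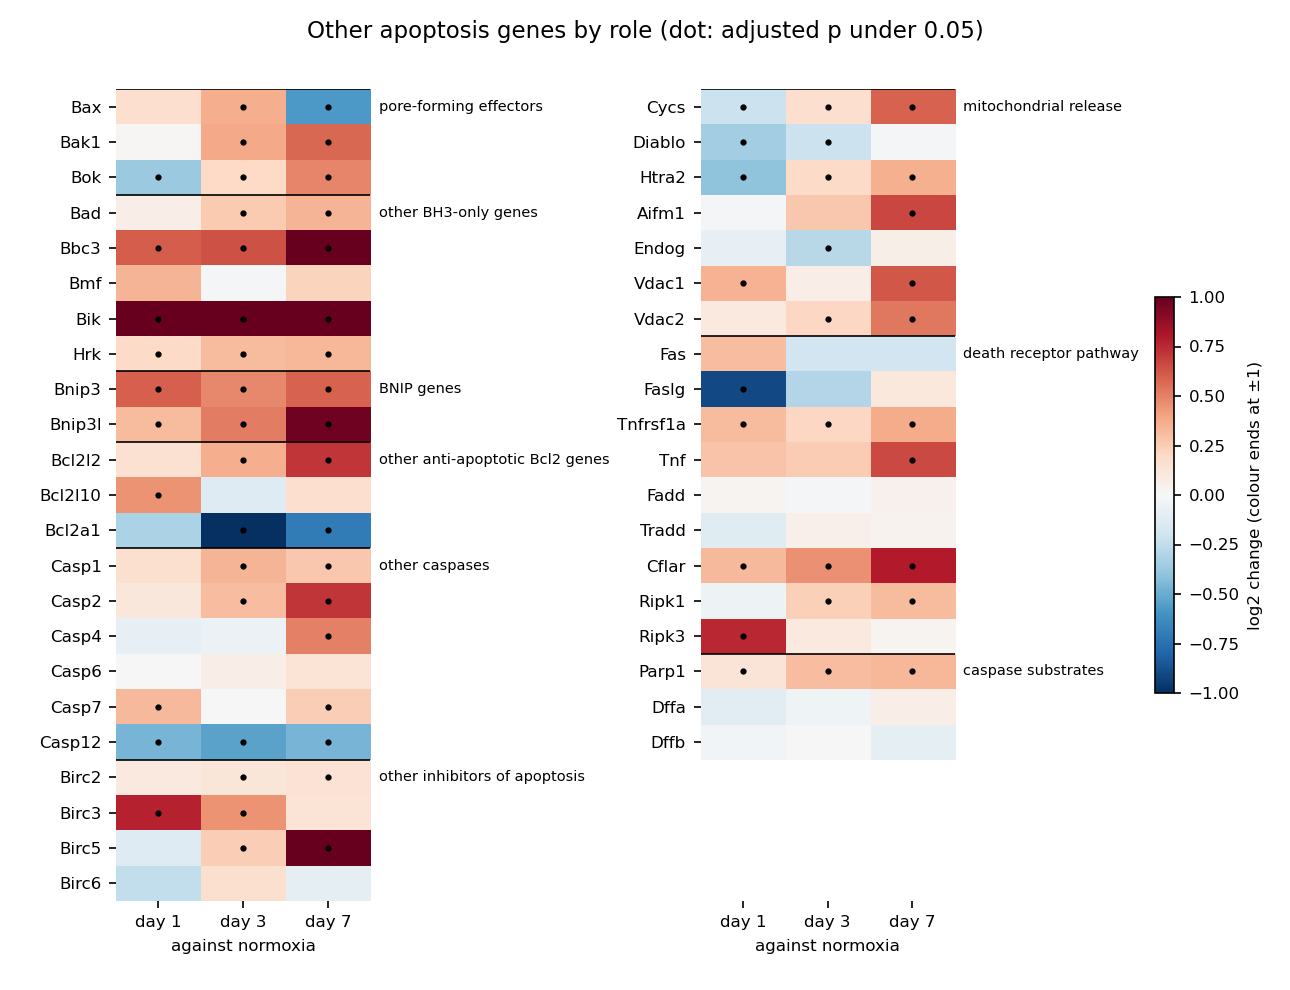
Log2 change against normoxia (colour, ending at 1 either way) of 42 of the other apoptosis genes (rows, grouped by role) on days 1, 3 and 7 (columns), each gene by its brightest tested probe, with a dot where the adjusted p was under 0.05. Most dots on day 7 lie on red cells, and Bax, Bcl2a1 and Casp12 are the 3 that fell.

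The change on day 7 followed signal level and probe composition over all probes. By decile of mean level, the median day 7 change ran from -0.67 in the dimmest to 0.36 in the brightest, and by probe GC from 0.25 over probes with more than 30% and up to 35% GC to -0.23 over those with more than 50% and up to 55%. Against their own deciles, the Casp9 probes (51.7% and 53.3% GC) changed by -1.23 where the decile median was -0.19 and by -0.59 where it was -0.23. Bcl2, with 28.3% GC, changed by -0.66 in the decile with -0.23. Both Apaf1 probes rose in deciles with medians of -0.11 and -0.19. The Xiap probes, with -0.38 and -0.18, and Mcl1, with -0.17, lay near their decile medians of -0.28, -0.37 and -0.11. Bid changed by -1.40 where its decile had -0.37. Both overlapping Bcl2l1 probes, with -0.06 and -0.16, lay below their decile median of 0.36. The start codon probe changed by 0.48 and the fourth probe by -0.005, where the decile medians were -0.23 and -0.28. With the probe GC trend removed, Bcl2 gave -0.80, the Casp9 probes -1.04 and -0.36, and the first Apaf1 probe 0.59, all still called.

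**Figure D4:**
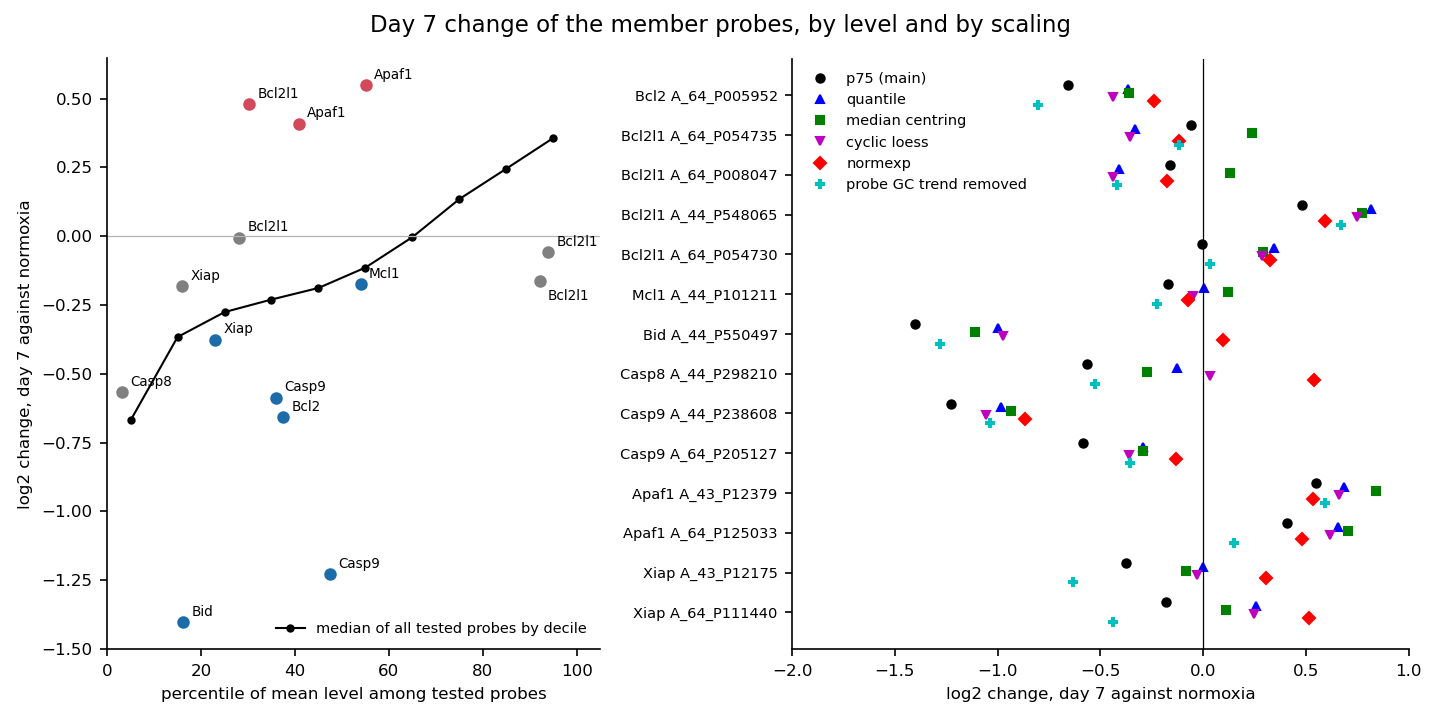
Left, day 7 change against normoxia (log2, y axis) of each tested member probe by the percentile of its mean level (x axis; red higher, blue lower, grey not called), with the median change of all tested probes per decile as a black line. Right, the day 7 change of each probe (x axis) under 6 ways of scaling. Casp9 and Bcl2 lie left of 0 under all 6, and Apaf1 and the Bcl2l1 start codon probe (A_44_P548065) right of 0. Bid, Casp8, Mcl1, Xiap and the other Bcl2l1 probes cross it.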

How the data were processed

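Cy3-labelled RNA was hybridised by the authors to Agilent rat arrays. The deposited scanner files hold processed signal intensity per spot from Feature Extraction 11.5.1.1, per the file headers, with background subtracted array by array and no scaling across arrays. The authors' deposited values are in log2 units; their scaling is not given in the sources used here, and 96.7% to 97.4% of them lay within 0.05 of log2 processed signal minus 1 constant per array. Their array medians were -3.53 to -3.23. All 8 arrays lay on 1 slide, with normoxia and day 1 in row 1 and days 3 and 7 in row 2. Row and group therefore cannot be told apart in comparisons across rows. Day 1 against normoxia and day 7 against day 3 lie within a row. In each row, both arrays of a group sat side by side, so column position and group cannot be told apart in these comparisons either.

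Control and outlier spots were left out, replicate spots of a probe were averaged on the log2 scale, and the 75th percentile over 30367 probes was subtracted. Of 30346 complete probes, 24678 were kept because some group had both arrays well above background. The fit used limma 3.58.1 in R 4.3.3 (lmFit, eBayes, two-sided) with a mean per group, 4 residual and 1.23 prior degrees of freedom and Benjamini-Hochberg adjustment over all kept probes. On simulated data for day 1 against normoxia (24678 probes, 50 changed per size), 0%, 32%, 68% and 78% of changes of 0.25, 0.5, 1 and 2 log2 were recovered, and 0.0163% of unchanged probes were called. In the data, 34.2% of all probes were called for this comparison, far more than were changed in the simulation. The adjustment was therefore stricter in the simulation, and its recovery rates do not carry over to the data. No depth applies; the number of arrays limits the precision. Where neither array of a group was well above background, its level was replaced by the larger of its own signal and the detection floor of the array, and the fold is a lower bound.

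The members and lists were chosen with earlier results of these data known. All members are reported, and per role up to 3 genes with the smallest F-test p; Dffb was added by choice. 1 gene of the lists is counted in the totals and not reported here. The genes Bcl2a1d, Naip2, Naip6 and Mlkl were not found by name, and Pmaip1, Casp14, Tnfrsf10b and Tnfsf10 were not above background on both arrays of a group. Alternatives were quantile normalization, median centring, cyclic loess, normexp (offset 50), the deposited values, a looser and a stricter detection filter, 1 probe per gene, an intensity-dependent prior, 2-group fits, a replicate block, a 2-fold threshold and leaving out each array; leaving out the day 1 arrays and removing the probe GC trend were added after seeing the data. Python 3.11.15, pandas 2.3.3, numpy 2.4.6, matplotlib 3.10.9 and the R package data.table (1.17.8) were used.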

Additional observations from a re-analysis of the deposited data

Results flagged for a closer look

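Some probes were called in opposite directions against normoxia on different days, with the difference between those days also called in limma over 24678 probes. Several of these calls against normoxia were lost under alternatives. They were those of Mcl1 and the first Xiap probe on day 7 and of Casp9 at base 1213 on day 3. The day 7 call of Casp9 at base 521 was lost with normexp. The day 1 calls of the first Apaf1 probe and the Bcl2l1 start codon probe were lost too. Bcl2 changed by -1.03 from day 3 to day 7 (adjusted p = 0.000767). From day 1 to day 7 the Bcl2l1 start codon probe changed by 0.87 (adjusted p = 0.000974), Mcl1 by -0.68 (adjusted p = 0.000116) and the first Xiap probe by -1.03 (adjusted p = 0.000583). Casp9 at base 1213 changed by -0.80 from day 1 to day 3 and by -1.78 from day 1 to day 7, and at base 521 by -1.02 and -1.08 (adjusted p = 0.000623, 3.64e-05, 0.000151 and 5.19e-05). The first Apaf1 probe changed by 0.50 from day 1 to day 3 and by 0.75 from day 1 to day 7 (adjusted p = 0.000541 and 8.14e-05). The day 1 arrays, whose choroid plexus and striatal markers stand apart, enter each of these differences except that of Bcl2, where they add only to the estimate of spread. The Bcl2 difference lies between days 3 and 7, whose choroid plexus markers summed to 7.32 to 7.42 and 3.24 to 3.35. The part of these markers in any of the differences was not tested.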

How the results depend on the processing

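With 2 arrays per group, a change not called is not shown to be absent, and signal near background limits Casp8, Bid and Xiap. Of the alternatives tried for the counts of calls, 235 stayed within 1.5 times the main count and 19 did not. Requiring also a 2-fold change left 0, 0 and 2 member probes on days 1, 3 and 7. It left 1 from day 3 to day 7 and 3 from day 1 to day 3. Casp8, which passed the filter only through day 1, is 1 of those 3. For the other apoptosis genes it left 1, 2 and 3 on days 1, 3 and 7. It left 0 of these from day 1 to day 3 and 1 from day 3 to day 7. Of all 24678 probes it left 875, 1858 and 3065 on days 1, 3 and 7. It left 1775 of them from day 1 to day 3 and 807 from day 3 to day 7. Fitting only the 2 groups compared left 3 member probes from day 3 to day 7, and 5629 of all probes, where the main fit called 10155. Cyclic loess gave 15 other apoptosis genes from day 1 to day 3, and median centring 30 from day 3 to day 7. Over all probes these settings gave 11599 and 12174. Leaving out each array gave 4 to 7, 4 to 8 and 6 to 9 member probes on days 1, 3 and 7, 6 to 9 from day 1 to day 3, 5 to 8 from day 3 to day 7 and 10 to 11 in the F-test. For the other apoptosis genes it gave 10 to 17, 19 to 25, 23 to 27, 12 to 23, 15 to 19 and 28 to 33. Single probes changed sign under normexp: Bcl2l1 at chr3:143176523-143176582 gave 0.26 and 0.32 on days 3 and 7, Bid 0.10 and 0.10, Casp8 0.33 and 0.54, and the Xiap probes 0.30 and 0.52 (day 7). On day 7 the first Bcl2l1 probe gave 0.24 under median centring, and Mcl1 gave 0.0035 under quantile normalization and 0.12 under median centring. The causes of these shifts were not tested. Without the day 1 arrays, chosen after seeing the data, 5 and 9 member probes were called on days 3 and 7. Over all 24678 probes, 11043 and 14180 were called there. Replicate numbers follow accession order and do not pair the samples (correlations of deviations -0.14 to 0.04, 2 of 6 above 0). With the replicate block, 7, 7 and 8 member probes were called on days 1, 3 and 7, beside 7711, 11756 and 14641 of all probes.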
